A study of Mus musculus with 6 samples.

Results

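The genes described here are 10 antagonists of WNT signaling, Sfrp1, Sfrp2, Sfrp4, Frzb, Dkk2, Dkk3, Wif1, Sost, Kremen1 and Sostdc1, found by symbol among the 57010 genes of a count table of mouse monocytes. All except Kremen1 encode secreted proteins. Kremen1 encodes a membrane receptor of the Dickkopf proteins, so the name secreted antagonist does not hold for it. The study sequenced RNA of monocytes from the bone marrow of the mandible (libraries S16, S19 and S23) and of the femur (libraries S13, S15 and S18), with 3 libraries in each group. All mice were C57BL/6 (C57Bl/6J in the methods) and 1 year old, untreated and with no allele named, and the monocytes were obtained with a negative selection kit, which keeps the cells that its antibodies do not bind. Male and female mice were used according to the methods, but the labels give no sex, animal or batch for a library, so the p-values given for other genes measure the spread between these libraries, which may be technical. The 10 genes were chosen with the difference between mandible and femur already known, so their values are given as a description. Where one of them is said to be called, this only places it on the scale used for all genes and is no test of it.

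WNT ligands bind a Frizzled receptor together with an LRP co-receptor, which stabilizes β-catenin and turns on target genes through TCF and LEF factors. Secreted frizzled-related proteins (Sfrp1, Sfrp2, Sfrp4 and Frzb) and WIF1 bind the ligand itself. The Dickkopf protein DKK2, sclerostin (Sost) and SOSTDC1 occupy the LRP co-receptor, and KREMEN1 helps to remove that co-receptor from the cell surface. In bone, WNT signaling favors bone formation by osteoblasts, and sclerostin from osteocytes restrains it.

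The libraries held 15718782 to 25371474 counts on genes, and 3 counts, the upper limit that a count of 0 allows, corresponded to 0.132 to 0.172 counts per 1000000 counts (CPM, scaled by TMM, the trimmed mean of M values). This limit and the counting intervals below cover counting error only. Femur library S15 stood apart, with 40494 genes that had a count against 17481 to 23513 in the other 5 libraries. In S15, 13454 genes had counts that no other library had, with a median of 5 counts and a 95th percentile of 21, whereas the other libraries had 77 to 417 such genes. Mandible library S23 also stood apart. The X-inactivation transcript Xist reached 1441 CPM in S23 and at most 0.553 CPM elsewhere, and Uty, Kdm5d, Eif2s3y and Ddx3y, all on the Y chromosome, had 0 counts in S23 and 432 to 1581 counts elsewhere. This is the pattern of female cells in S23 and of male cells in the other 5 libraries, so no femur library was female. S23 was the highest mandible library for 8 of the antagonists, and sex and site cannot be fully told apart. The labelled cell type was present, since all 9 monocyte markers had counts in every library, with a sum of 7299 to 14030 CPM in femur-derived against 6405 to 11510 CPM in mandibular-derived libraries.

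Expression of 9 of the 10 antagonists was higher in every mandibular-derived library than in every femur-derived library, and Sost was close to 0 in both groups. Of the 18114 genes that passed the filter on low counts, 12.7% had every mandible library above every femur library. The filter kept 9 antagonists and left out Sost. A gene was called where its adjusted p was under 0.05 and it differed at least 2-fold in the edgeR fit. On this rule, 7 of the 9 were called higher in the mandible and 0 were called lower, beside 3.88% of all tested genes called higher and 1.3% called lower. These calls use the values by which the genes were chosen, and Sfrp2, Frzb, Dkk2, Dkk3 and Sostdc1, with 2 to 24 counts in the femur in all, passed the filter only through the mandible, so the counts are no support for a direction. The called genes were Sfrp1, Sfrp2, Sfrp4, Dkk2, Dkk3, Wif1 and Kremen1, and Frzb and Sostdc1 were not called. The median log2 fold change was 4.60 over the 9 antagonists and -0.038 over all tested genes. In bulk samples, a difference in the number of cells of a type and a difference in RNA per cell cannot be told apart.

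Sfrp2 had the highest level of the secreted frizzled-related proteins in the mandible and was almost absent from the femur. The Sfrp2 gene (ENSMUSG00000027996) lies on chromosome 3 from 83766321 to 83774316 of GRCm38. Its expression was 70.6, 158 and 192 CPM in mandible libraries S16, S19 and S23 and 0, 0.092 and 0 CPM in femur libraries S13, S15 and S18. The femur values rest on 2 counts, both in S15, against 8105 counts in the mandible, a ratio of 4323 with an exact 95% counting interval of 1196 to 35710. Without S15 the femur had no count, and the mandible mean of Sfrp2 was at least 847-fold higher when the femur was set to 3 counts per library. The antisense gene Gm26771 overlaps Sfrp2 and had at most 8 counts in a library.

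Sfrp1 and Sfrp4 were present at both sites. Sfrp1 (ENSMUSG00000031548, chromosome 8 from 23411502 to 23449632) was at 16.8, 21.9 and 36.1 CPM in S16, S19 and S23 and at 2.49, 1.84 and 2.83 CPM in S13, S15 and S18. The mandible libraries were spread more than the femur libraries, at 25.0 ± 10.02 against 2.39 ± 0.50 CPM (SD, n = 3 in each group), and the groups did not overlap. The log2 fold change of Sfrp1 was 3.38 (standard error 0.46), or 10.4-fold.

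Sfrp4 (ENSMUSG00000021319, chromosome 13 from 19623104 to 19632994) had a difference like that of Kremen1, and the order of the 2 genes turned between settings. Sfrp4 was at 23.5, 35.2 and 39.9 CPM in S16, S19 and S23 and at 8.34, 10.3 and 8.75 CPM in S13, S15 and S18. The femur libraries lay close together, and the lowest mandible library was above all of them. Sfrp4 was 3.60-fold higher (log2 fold change 1.85, standard error 0.34). It was no longer called without mandible S19, where the log2 fold change was 1.75.

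Frzb (ENSMUSG00000027004, chromosome 2 from 80411970 to 80447625), the remaining member of the family, was the least abundant of them in the mandible. Its expression was 1.00, 7.22 and 8.69 CPM in S16, S19 and S23 and 0.387, 0.323 and 0 CPM in S13, S15 and S18. S16 lay far below the other mandible libraries, and the highest mandible value was 8.69 times the lowest. The log2 fold change was 4.56 (standard error 1.33) with all 6 libraries, where Frzb was not called, and 5.06 without mandible S16, where it was called.

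**Figure D1:**
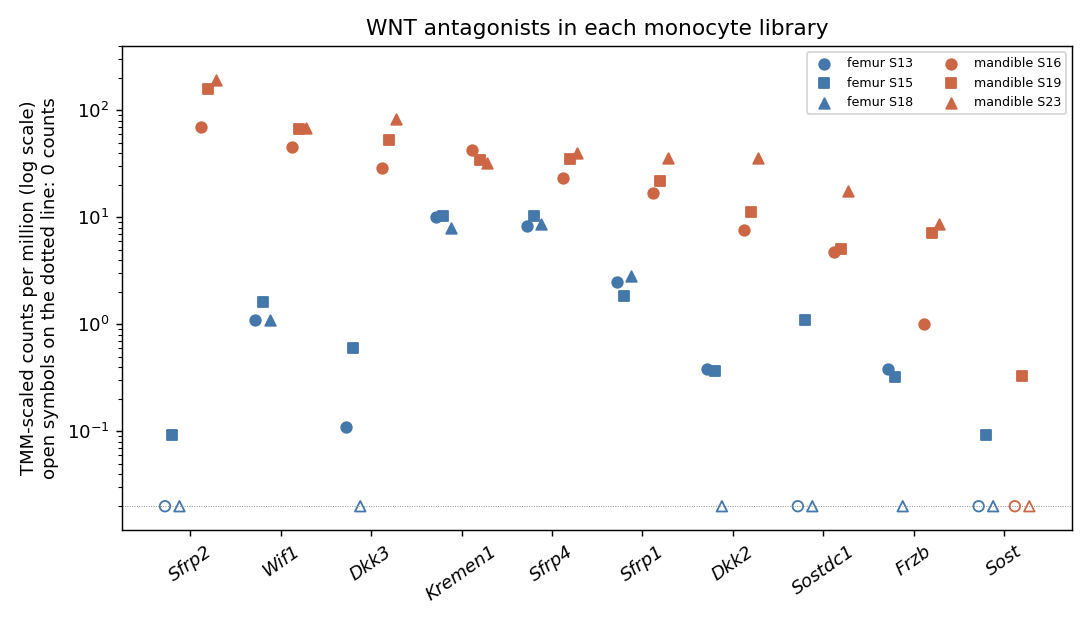
TMM-scaled CPM (y axis, log scale) of the 10 WNT antagonists (x axis) in the 3 femur-derived (blue) and 3 mandibular-derived (orange) libraries, with 1 symbol per library and open symbols on the dotted line for 0 counts. For 9 genes the mandible symbols all lie above the femur symbols, and for Sost they overlap.

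Wif1, which encodes WNT inhibitory factor 1, had more even levels in the mandible than every other tested antagonist except Kremen1, with a highest value 1.52 times the lowest against 1.32 times for Kremen1. Wif1 (ENSMUSG00000020218, chromosome 10 from 121033960 to 121100650) was at 45.4, 67.0 and 68.8 CPM in S16, S19 and S23 and at 1.11, 1.61 and 1.10 CPM in S13, S15 and S18. All femur libraries had at least 20 counts, so the femur level did not rest on S15 alone. Wif1 was 47.1-fold higher (log2 fold change 5.56, standard error 0.37), with log2 values ranging from 5.40 to 5.73 over the other settings.

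Among the Dickkopf genes, Dkk3 was more abundant than Dkk2 in every mandible library, also per kilobase of transcript. Dkk2 encodes a ligand of the LRP co-receptors, and Dkk3 encodes a divergent member of the family. Dkk2 (ENSMUSG00000028031, chromosome 3 from 132085292 to 132180304) was at 7.61, 11.2 and 35.8 CPM in S16, S19 and S23 and at 0.387, 0.369 and 0 CPM in S13, S15 and S18. S23 held 61.8% of the mandible counts of Dkk2, and its log2 fold change was 6.17 (standard error 1.01) with all libraries and 5.15 without S23. Dkk2 was not called with limma-voom.

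Dkk3 (ENSMUSG00000030772, chromosome 7 from 112116017 to 112159057) was at 28.7, 53.4 and 83.5 CPM in S16, S19 and S23 and at 0.110, 0.599 and 0 CPM in S13, S15 and S18. The femur counts were 2, 13 and 0, so that most of them came from S15. The log2 fold change of Dkk3 was 7.81 (standard error 0.84) with all libraries and 9.91 without S15, and the ratio of pooled counts was 225 with an exact 95% counting interval of 136 to 402.

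Kremen1, the receptor that acts with the Dickkopf proteins, was among the most abundant antagonists in the femur and differed little among libraries of a group. Kremen1 (ENSMUSG00000020393, chromosome 11 from 5191552 to 5261558) was at 42.5, 34.7 and 32.3 CPM in S16, S19 and S23 and at 10.1, 10.4 and 7.95 CPM in S13, S15 and S18. The order of the mandible libraries was the reverse of that of the other called antagonists, with S16 highest and S23 lowest. Kremen1 was 3.86-fold higher (log2 fold change 1.95, standard error 0.31), with a log2 value of 1.46 after a correction for gene length.

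Sost and Sostdc1, whose products bind the same co-receptors, differed from each other. Sost (ENSMUSG00000001494, chromosome 11 from 101962458 to 101967015) had 0, 7 and 0 counts in S16, S19 and S23 and 0, 2 and 0 counts in S13, S15 and S18. The groups overlapped, the ratio of pooled counts was 3.73 with an exact 95% counting interval of 0.711 to 36.8, and a difference in Sost was not detectable at this depth. The other osteocyte genes of the marker list did not share one pattern. Mepe had at most 7 counts in a library, and the 24 counts of Fgf23 were all in S19. Dmp1, which encodes a matrix protein of osteocytes, was at 21.0, 13.6 and 48.7 CPM in S16, S19 and S23 and at 2.93, 1.29 and 4.02 CPM in S13, S15 and S18, and it was called higher (log2 fold change 3.33, adjusted p = 0.0071, edgeR). Phex, a peptidase of the same cells, had 93 to 113 counts in the mandible and 45 to 72 in the femur and was not called (log2 fold change 1.04, adjusted p = 0.52, edgeR).

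Sostdc1 (ENSMUSG00000036169, chromosome 12 from 36314139 to 36318452), which encodes an antagonist of both WNT and BMP signaling, was at 4.75, 5.03 and 17.7 CPM in S16, S19 and S23 and at 0, 1.11 and 0 CPM in S13, S15 and S18. Its 24 femur counts were all in S15, slightly above the 95th percentile of counts seen in that library alone. With all libraries the log2 fold change was 4.60 (standard error 1.42), and Sostdc1 was not called. Without S15 it was called. Against S13 and S18 alone, set to 3 counts per library, its mandible mean was at least 55.2-fold higher, and with all libraries its fold in edgeR was 24.2. Without mandible S23 the log2 fold change was 3.64 and it was not called. The part of S15 and S23 in these values was not tested further.

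**Figure D2:**
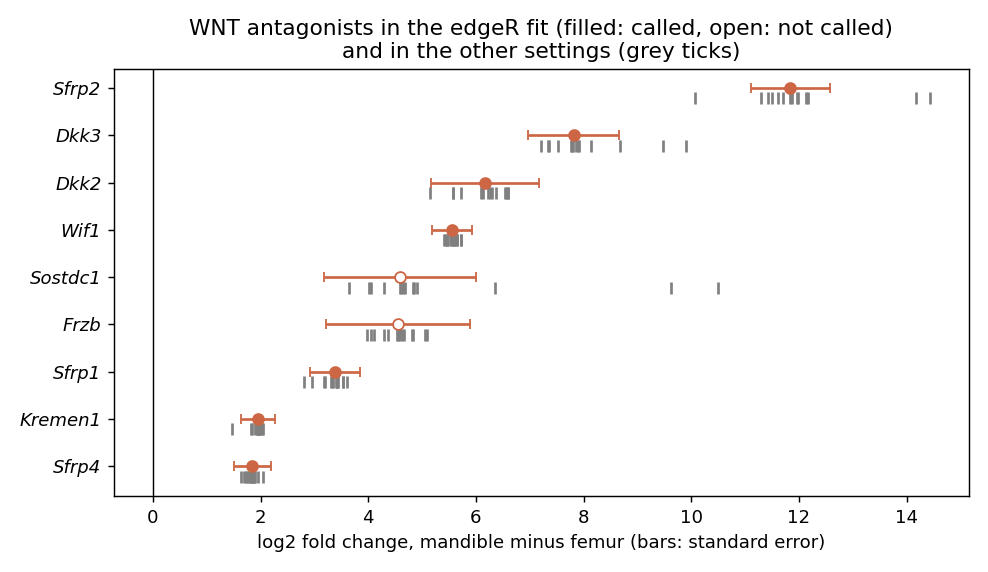
Log2 fold change, mandible minus femur (x axis), of the 9 tested antagonists (y axis) from the edgeR fit of 6 libraries, as points with standard errors, filled where called and open where not. Grey ticks are the other settings, and all lie above 0, from 1.46 for Kremen1 to 14.43 for Sfrp2.

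Leaving out S15 and S23 together, a choice made after seeing the data, left 8 antagonists called higher. Leaving out 1 library gave 6 to 8, with 6 without mandible S19, 8 without femur S15 and 8 without mandible S16. The number was 7 without each of the other 3 libraries.

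The make-up of the antagonist transcripts differed between the sites, compared per kilobase of gene length (CPM per kilobase). In the mandible, Sfrp2 was at 65.2 ± 29.2, Wif1 at 24.9 ± 5.37 and Dkk3 at 16.4 ± 8.17 CPM per kilobase (SD, n = 3). Sfrp4, Sfrp1, Sostdc1, Dkk2 and Kremen1 followed at means of 7.86, 5.71, 5.14, 4.91 and 4.73 CPM per kilobase, which neighbour each other within their spread, and Frzb was at 1.74 and Sost at 0.054. In the femur, Sfrp4 led at a mean of 2.18, followed by Kremen1 at 1.23, Sfrp1 at 0.546 and Wif1 at 0.525 CPM per kilobase. Sfrp2, Wif1 and Dkk3 together made up 75.0 to 81.7% of the summed level in the mandible libraries and 10.7 to 14.8% in the femur libraries. Sfrp4 and Kremen1 together made up 7.36 to 13.9% in the mandible and 63.6 to 73.9% in the femur. The secreted frizzled-related family as a whole kept a like share, at 53.2 to 62.3% in the mandible and 50.6 to 64.9% in the femur.

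**Figure D3:**
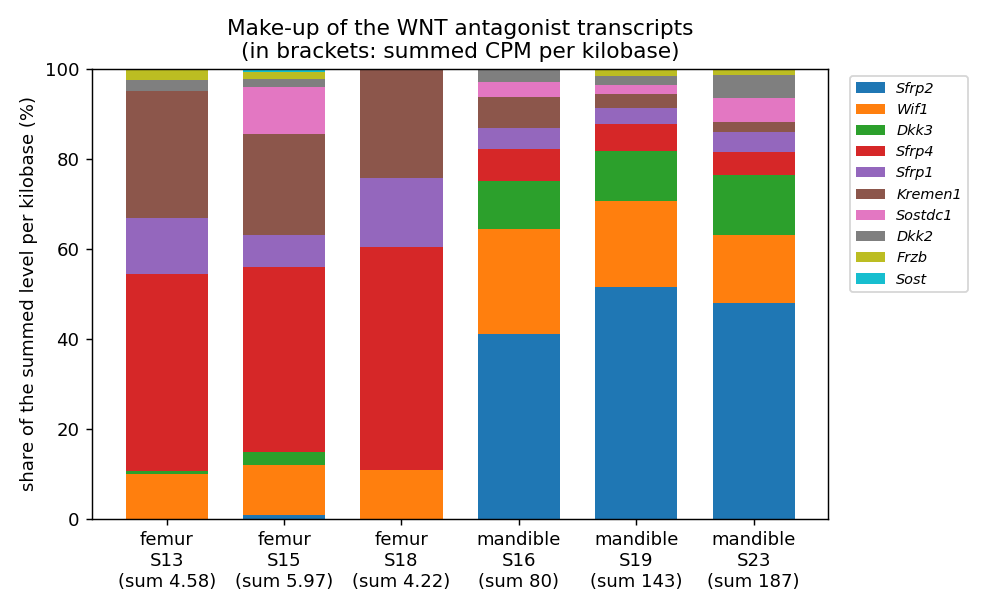
Share of each antagonist in the summed CPM per kilobase of the 10 genes (y axis, %) in each femur and mandible library (x axis), with the sum in brackets. Sfrp2, Wif1 and Dkk3 make up 75.0 to 81.7% of the mandible bars, and Sfrp4 and Kremen1 63.6 to 73.9% of the femur bars.

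The sequence upstream of 4 antagonists is shown to set 3 genes that were almost absent or low in the femur (Sfrp2, Dkk2 and Wif1) beside Sost, which was near 0 at both sites. Each run is the 250 bases before the RefSeq start on GRCm38.p6, 5′ to 3′ on the strand of the gene. The positions are chr3:83766071-83766320 (plus strand) for Sfrp2, chr3:132085042-132085291 (plus strand) for Dkk2, chr10:121033754-121034003 (plus strand) for Wif1 and chr11:101967016-101967265 (minus strand) for Sost. Capitals mark matches to a TATA box (TATAAA) or a GC box (GGGCGG) on either strand.
Sfrp2: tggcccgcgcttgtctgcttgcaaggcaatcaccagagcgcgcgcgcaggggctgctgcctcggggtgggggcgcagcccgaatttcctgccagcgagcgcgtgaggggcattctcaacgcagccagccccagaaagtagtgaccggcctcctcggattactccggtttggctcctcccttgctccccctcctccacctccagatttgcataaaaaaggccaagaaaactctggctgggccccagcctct
Dkk2: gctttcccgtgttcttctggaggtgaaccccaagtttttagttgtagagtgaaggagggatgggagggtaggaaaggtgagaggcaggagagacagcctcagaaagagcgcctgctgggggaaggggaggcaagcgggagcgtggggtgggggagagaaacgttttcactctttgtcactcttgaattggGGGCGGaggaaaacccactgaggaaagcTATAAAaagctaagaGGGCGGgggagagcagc
Wif1: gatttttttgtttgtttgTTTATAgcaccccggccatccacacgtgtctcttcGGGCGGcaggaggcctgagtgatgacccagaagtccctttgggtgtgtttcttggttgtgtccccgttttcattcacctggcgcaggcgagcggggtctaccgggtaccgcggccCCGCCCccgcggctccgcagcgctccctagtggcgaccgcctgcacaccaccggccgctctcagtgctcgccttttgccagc
Sost: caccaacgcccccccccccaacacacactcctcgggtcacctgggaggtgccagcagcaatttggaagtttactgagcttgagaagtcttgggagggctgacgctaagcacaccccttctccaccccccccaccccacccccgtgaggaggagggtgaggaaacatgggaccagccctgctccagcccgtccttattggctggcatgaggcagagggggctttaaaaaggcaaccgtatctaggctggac

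Promoters were held for 5 of the 10 antagonists, these 4 and Frzb. The TCF/LEF letters searched were CTTTGAA or CTTTGAT or CTTTGTA or CTTTGTT on both strands, and they were in 0 of the 5 and in 14.8% of 32851 promoters of the same length. The RUNX letters TGTGGT were in 0 of the 5 and in 14% of all promoters. The TATA letters were in 2 of the 5 and in 12.4% of all promoters, at -32 to -27 from the start in Dkk2 and on the minus strand at -232 to -227 in Wif1. The GC box was in 3 of the 5, Frzb, Dkk2 and Wif1, and in 32.7% of all promoters. Sfrp2, Frzb and Wif1 held 16, 16 and 21 CpG pairs, above the median of 6 over all promoters, and Dkk2 and Sost held 7 and 6. These matches describe the letters of the windows and no binding was measured.

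The other genes of the pathway were read from 8 lists made by role, with 85 genes in all, which were drawn up with earlier results of these data known. Of the 67 that were tested, 16 were called higher in the mandible and 0 lower with edgeR's quasi-likelihood test, beside the 3.88% and 1.3% of all tested genes. At an unadjusted p under 0.05 in the same test, 1 gene (Draxin, an antagonist named after its value was seen) was lower, and DESeq2 and limma-voom also called 0 lower. The number called higher was 9 without femur S13, 7 without femur S18, 6 without mandible S19, 4 without mandible S23 and 22 without femur S15. With limma-voom 6 were called higher, and of the genes named below Shisa2, Nkd2, Wnt5a, Rspo4, Ror2, Tcf7l1, Pygo1 and Ccn4 were then not called, with adjusted p between 0.052 and 0.13. The 16 included both agonists and inhibitors of the pathway. Of these, Wnt5a, Rspo4 and Ror2 had femur counts in S15 alone. They, and also Shisa2, Tcf7l1, Pygo1 and Ccn4, passed the filter only through the mandible. The number called higher is therefore no support for a direction.

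Among the 13 other extracellular or membrane antagonists, 8 were tested and 1 was called higher. This was Shisa2, whose product retains Frizzled receptors in the cell, which was higher by 5.06 on the log2 scale (standard error 0.80, Benjamini-Hochberg adjusted p = 0.0037, quasi-likelihood test of edgeR). Apcdd1, a membrane inhibitor, differed by 1.40 on the log2 scale and was not called (adjusted p = 0.15, edgeR). Dkk1 had 0, 4 and 0 counts in S13, S15 and S18 and 0, 7 and 0 in S16, S19 and S23, and Sfrp5 had no count.

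Among the 5 intracellular or membrane feedback inhibitors, which WNT signaling itself switches on, 1 was called higher. Nkd2 was higher by 2.81 on the log2 scale (adjusted p = 0.048, edgeR), and it was no longer called without femur S13, S15 or S18 or without mandible S19 or S23, at 2.49 to 3.07. Axin2, a widely used readout of the pathway, was at 6.78 ± 0.998 CPM in femur-derived against 11.5 ± 4.32 CPM in mandibular-derived monocytes (SD, n = 3 each), and it was not called (log2 fold change 0.77, adjusted p = 0.49, edgeR).

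Few WNT ligands and R-spondins were called. Wnt5a, a ligand of the β-catenin-independent branch, was 1 of 11 tested ligands called higher, and all 11 had a log2 fold change above 0, as did 8660 of all 18114 tested genes. Wnt3a, Wnt5a, Wnt7a, Wnt9a, Wnt10b and Wnt16 had femur counts in S15 alone and passed the filter only through the mandible. Wnt8a and Wnt9b, with counts only in femur S15, were left out by the filter. The shared sign of the tested ligands is therefore no support for a direction. Wnt5a was at 20.9 ± 11.6 CPM in mandibular-derived against 0.200 ± 0.346 CPM in femur-derived monocytes (SD, n = 3 each), a difference of 6.64 on the log2 scale (adjusted p = 0.0056, edgeR), and its 13 femur counts were all in S15. Without S15, the mandible mean of Wnt5a was at least 126-fold higher, with the femur set to 3 counts per library. With all libraries its fold in edgeR was 99.4. Rspo4, an R-spondin that keeps WNT receptors on the surface, was 1 of 4 tested agonists called higher, by 6.73 on the log2 scale (adjusted p = 0.0094, edgeR). Rspo4 was not called without mandible S23, where its log2 fold change was 5.48 (adjusted p = 0.086, edgeR). Without S15, its mandible mean was at least 115-fold higher on the same limit, with S16 at 5.25 CPM and S23 at 40.8 CPM. With all libraries the fold of Rspo4 in edgeR was 106. None of the other 3 tested R-spondins was called, and their log2 fold changes were 1.83 (Rspo1), -1.61 (Rspo2) and -0.61 (Rspo3). Wls, which carries WNT ligands to the cell surface, differed by 0.044 on the log2 scale (adjusted p = 0.97, edgeR), and its sign turned under other settings, among them the gene length correction.

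Among receptors, 6 of 17 tested genes were called higher and 0 lower. Ror2, a receptor for WNT5A, was higher by 6.08 on the log2 scale (adjusted p = 0.021, edgeR), and Ptk7, a co-receptor, by 3.32 (adjusted p = 0.0041, edgeR). The call of Ror2 was lost without femur S13 or S18 or mandible S19 or S23, at 5.51 to 6.06. Without S15, the mandible mean of Ror2 was at least 47.3-fold higher, with the femur set to 3 counts per library. Lrp6, the co-receptor itself, was higher by 1.12 on the log2 scale (adjusted p = 0.018, edgeR), which missed the thresholds when any 1 library was left out, at 1.00 to 1.19, and was 0.38 after the gene length correction.

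Of 15 cytoplasmic and nuclear components, 4 were called higher. Tcf7l1, a TCF factor, was higher by 4.75 on the log2 scale (adjusted p = 0.0053, edgeR), and 3.81 without mandible S23, where it was not called. Pygo1, a β-catenin co-factor, was higher by 4.32 (adjusted p = 0.024, edgeR) and was not called without femur S18 or mandible S16, S19 or S23, at 3.78 to 4.57. Csnk1a1, a kinase of the β-catenin destruction complex, differed by 0.30 (adjusted p = 0.69, edgeR), and -0.32 after the gene length correction.

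Of 5 tested target genes, 2 were called higher. Ccn4 was higher by 7.67 on the log2 scale (standard error 0.69, adjusted p = 0.00011, edgeR), and it was called without each library in turn. Its counts in S13, S15 and S18 were 5, 3 and 2, and it passed the filter only through the mandible. These calls are therefore no support for a direction. Lef1, both a target and a nuclear factor of the pathway, was higher by 2.39 (adjusted p = 0.028, edgeR) and was not called without femur S18 or mandible S19 or S23, at 1.69 to 2.59. For Myc the log2 difference was -0.51 (adjusted p = 0.45, edgeR).

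**Figure D4:**
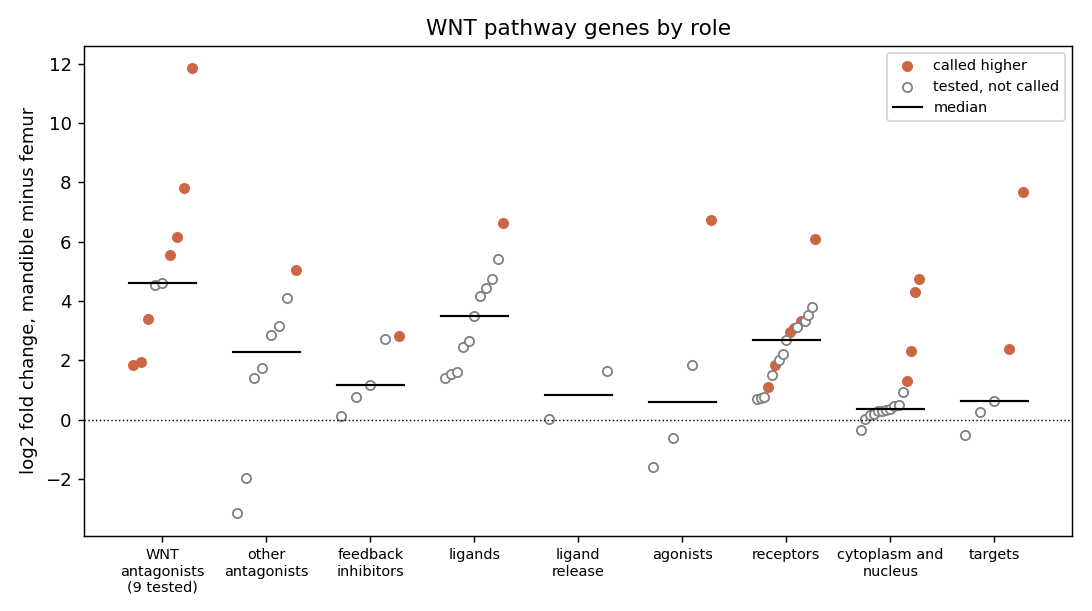
Log2 fold change, mandible minus femur (y axis), of each tested gene of the WNT pathway by role (x axis), with filled points for genes called higher, open points for other tested genes and a bar for the median. The median is 4.60 for the antagonists described here, 2.29 for the other antagonists, 3.50 for ligands and 2.69 for receptors.

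The summed level of the 10 antagonists was set against that of the 24 listed ligands and agonists. The antagonist sum was 80.0, 143 and 187 CPM per kilobase in S16, S19 and S23, and the ligand and agonist sum was 18.7, 27.7 and 52.6. In S13, S15 and S18 the antagonist sum was 4.58, 5.97 and 4.22 and the ligand and agonist sum 2.05, 10.03 and 2.79. The ratio of the sums was 3.55 to 5.16 in the mandible and 0.596 to 2.23 in the femur, where it was lowest in S15. The 10 antagonists were chosen on this contrast. The ratio was also taken for the 13 other listed antagonists alone, which are those left after that choice and are no unselected comparison. It was 0.307, 0.281 and 0.292 in S16, S19 and S23 and 1.49, 0.487 and 0.945 in S13, S15 and S18, so that the ratio was lower in every mandible library, the opposite order. The sum of these 13 antagonists was itself higher in every mandible library. It was 5.76, 7.80 and 15.4 CPM per kilobase in S16, S19 and S23 and 3.05, 4.88 and 2.64 in S13, S15 and S18. Most of the femur sum was Draxin (0.797, 2.11 and 1.14) and Dkkl1 (1.12, 0.672 and 0.477), both lower in every mandible library. For all 23 antagonists together, of which the chosen 10 made up most of the mandible sum, the ratio was 3.84 to 5.45 in the mandible and 1.08 to 3.72 in the femur. The direction of the ratio therefore depended on which antagonists were taken, and none of these ratios is support for a direction.

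Markers of other cell types moved with the antagonists. The summed level of the 10 antagonists was 20.6 to 26.7 CPM in the femur and 241, 394 and 515 CPM in S16, S19 and S23. Of 13 osteoblast and osteocyte markers, 9 of 11 tested were called higher, and the sum of the list was 145 to 169 CPM in femur-derived against 5269 to 7887 CPM in mandibular-derived libraries. Col1a1 alone was at 4738, 5629 and 7038 CPM in S16, S19 and S23, most of the mandible sum. It was 180-fold higher, and the other called markers were 2.42-fold (Runx2) to 66.2-fold (Bglap) higher. Of 10 fibroblast and ligament markers, 7 of 9 tested were called higher, and the sum of the list was 65.4 to 95.4 CPM in the femur and 3842, 5896 and 7785 CPM in S16, S19 and S23. Most of that mandible sum was Col1a2 (2410, 3029 and 4025 CPM) and Col3a1 (1173, 2422 and 3301 CPM). S16 was the lowest and S23 the highest mandible library in the sums of these lists and of the tooth and marrow stromal lists below, as in the antagonist sum. The same held for the sums of WNT ligands, agonists, receptors, other antagonists, feedback inhibitors and targets, so the order was not particular to these marker lists. In the chondrocyte list S19 was lowest.

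Of 10 tooth epithelium and odontoblast markers, 9 were called higher, with a sum of 0.221 to 4.75 CPM in femur-derived against 5856 to 11440 CPM in mandibular-derived libraries. Of 8 of these markers, at least 1 femur library had 0 counts, and Odam had 0 in all of them. All 6 skeletal muscle markers were called higher, at 3.14 to 16.4 CPM in femur-derived against 1086 to 3598 CPM in mandibular-derived libraries, where S19 was lowest. Chondrocyte markers were at 2.54 to 12.0 CPM in femur-derived against 52.3 to 121 CPM in mandibular-derived libraries, with 2 of 4 tested called higher, and Matn1 had 0 counts in every mandible library.

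The summed level of the marrow stromal markers overlapped between the sites, at 237 to 424 CPM in femur-derived against 194 to 433 CPM in mandibular-derived libraries, but its members moved in opposite directions. Pdgfra, Pdgfrb and Prrx1 were called higher, and Vcam1 was called lower. Cxcl12 and Adipoq also lay lower in every mandible library than in any femur library and were not called, and Lepr, Kitl and Foxc1 overlapped. Of the tested endothelial (4), monocyte (9) and B cell (5) markers, 0 were called in either direction, and their sums overlapped. Neutrophil markers had 1 of 7 called lower, and their sums also overlapped. Erythroid markers (4 of 6 called lower) and megakaryocyte markers (4 of 5 called lower) were lower in every mandible library than in any femur library. Which cells carried the antagonist transcripts was not tested.

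**Figure D5:**
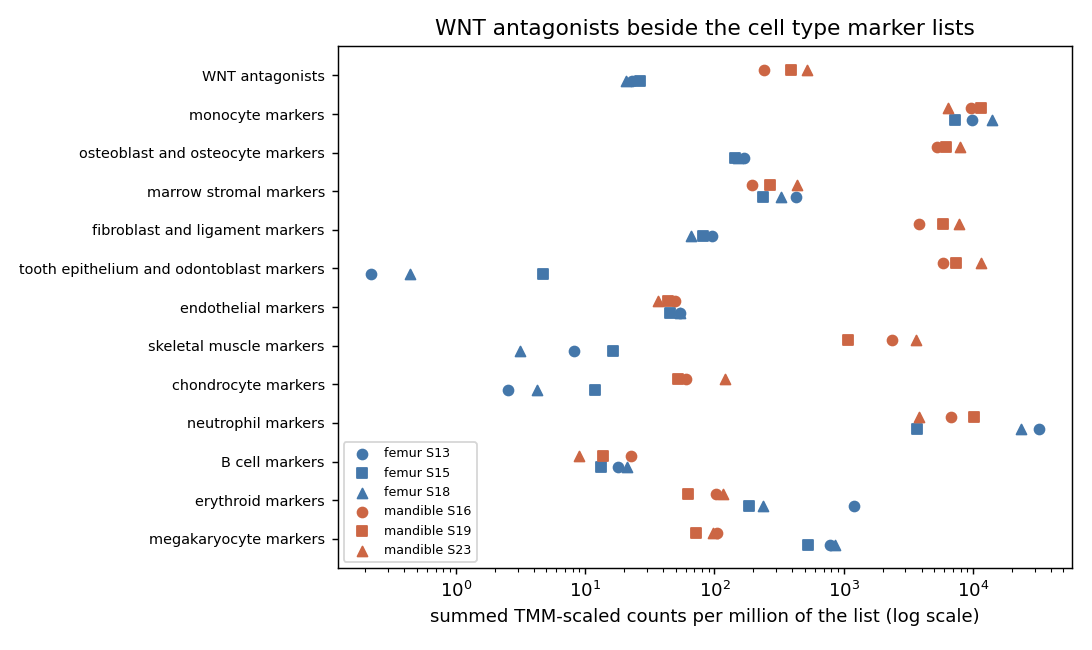
Summed TMM-scaled CPM (x axis, log scale) of the 10 WNT antagonists and of 12 cell type marker lists (y axis) in each femur (blue) and mandible (orange) library. The antagonist sums of the groups lie apart, as do those of the osteoblast, fibroblast, tooth, muscle and chondrocyte lists, and the monocyte sums overlap.

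Relative to the collagen transcript Col1a2, the antagonists fell into different patterns. Wif1 had 18.8, 22.1 and 17.1 counts per 1000 counts of Col1a2 in S16, S19 and S23 and 18.6, 28.5 and 27.0 in S13, S15 and S18, so the groups overlapped. Sfrp4 had 9.74 to 11.6 per 1000 in the mandible and 140 to 214 in the femur, and Kremen1 had 8.03 to 17.6 and 169 to 194, both lower relative to Col1a2 in every mandible library. Sfrp2 had 29.3 to 52.3 per 1000 in the mandible and 0, 1.63 and 0 in S13, S15 and S18. Dkk3 had 11.9 to 20.8 per 1000 in the mandible and 0 to 10.6 in the femur, and Sfrp1 had 6.98 to 8.98 and 32.5 to 69.0. For Frzb, Dkk2, Sost and Sostdc1 the groups overlapped. The antagonist counts summed to 99.9 to 130 per 1000 counts of Col1a2 in the mandible and 385 to 504 in the femur, lower in every mandible library. Most of the femur sum was Sfrp4 and Kremen1. Relative to Pdgfra, a receptor of stromal cells, they summed to 3610 to 4474 per 1000 in the mandible and 2538 to 3869 in the femur, and the groups overlapped.

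The genes whose levels were most like those of the 3 most abundant antagonists were found by Pearson's r of log2 CPM over the 6 libraries, as a description. For Sfrp2 these were Prss35 (r = 0.9992), Col3a1 (0.9989) and Calb1 (0.9989). For Wif1 they were Ambn (0.9992), which encodes an enamel protein, Col1a1 (0.9991) and Prss35 (0.9991), and for Dkk3 they were Cd276 (0.9996), Gas1 (0.9986) and Hunk (0.998). The 6 points share the split between the sites, and 504, 481 and 607 genes had an r above 0.95 with Sfrp2, Wif1 and Dkk3.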

How the data were processed

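RNA of 6 libraries was analysed, 3 per skeletal site. Paired-end reads had been trimmed and aligned with HISAT2 2.1.0 to a genome named as GRCm38, and the authors used featureCounts (version, strand and multimapping settings not given in the sources used here) and deposited the raw counts per gene. Groups were taken from the sample labels. The counts were filtered with filterByExpr (minimum count 10, minimum total count 15), TMM-scaled and tested in R 4.3.3 with edgeR 4.0.16 (quasi-likelihood test, prior count 0.125, no covariates) and Benjamini-Hochberg adjustment over 18114 genes. Standard errors are the absolute log2 fold change divided by the square root of F. Levels per kilobase use the deposited gene lengths.

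The table's own positions lay inside the annotated gene for 0 of the 10 antagonists, so positions are from GENCODE M21 by Ensembl identifier. Promoters are from RefSeq. The antagonists and the gene lists were chosen with earlier results of these data known. Besides the antagonists, the named genes were, in each WNT list, the gene highest in mean CPM and at most 2 called genes that changed most, the 3 genes most like each of 3 antagonists, the 2 genes with the highest mean CPM of each marker list, and sex-linked genes. Draxin, Dkk1, Sfrp5, Rspo1, Rspo2, Rspo3 and the marker genes outside this rule were named after their values were seen. Alternatives were RLE and no size factors, DESeq2 1.42.0, voom in limma 3.58.1, other filters and thresholds, a gene length correction (loess, span 0.4), a prior count of 2 and each library left out. The fit was tested on simulated data.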

Additional observations from a re-analysis of the deposited data

How the results depend on the processing

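All 9 tested antagonists kept a log2 fold change above 0 in every setting in which they were tested. They were chosen on this contrast, and Sfrp2, Frzb, Dkk2, Dkk3 and Sostdc1 passed the filter only through the mandible. The shared sign is therefore no support for a direction. The number called higher was 7, and 4 of 4 tested where at least 10 counts were required in every library, a filter that removes genes near 0 in the femur. It was 6 to 8 with 1 library left out, and 0 were called lower throughout. Frzb was also called with DESeq2, and both Frzb and Sostdc1 with no filter on low counts. The log2 fold change of Sfrp2 ranged from 10.07 with a prior count of 2 to 14.43 without femur S15.

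Over all genes, 702 were called higher and 236 lower. DESeq2 gave 1091 higher and 457 lower, and an adjusted p under 0.01 gave 384 and 61. The number lower was 157 without normalization factors, 571 with no filter and 497 without femur S15 and mandible S23 together. With 1 library left out, 376 to 957 genes were higher and 58 to 608 lower. The 16 other WNT genes became 27 with DESeq2, 6 with limma-voom, 27 with no filter and 6 at an adjusted p under 0.01, and 4 to 22 with 1 library left out. The cause was not tested.

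The sign of Wls turned to -0.0092 with no filter, -0.51 with the gene length correction, and -0.16 (femur S15), -0.10 (mandible S16) and -0.065 (mandible S19) on leaving out that library, in a range up to 0.25 (femur S18). The length correction, which moved the median log2 fold change of all genes from -0.038 to -0.15, turned Csnk1a1 to -0.32 and the monocyte and B cell markers Lyz2 and Cd79a to 0.17 and 0.081. On leaving out libraries, the endothelial marker Kdr ranged from -0.71 (S15 and S23) to 0.093 (femur S13) and Cd79a from -0.92 (mandible S19) to 0.15 (mandible S23). Of the other values of single genes, 694 kept direction and call, 67 lost the call and 17 gained it. No paired analysis was possible because the labels give no animal for a library, so whether libraries of the 2 sites share animals is not known. With 3 libraries per group and femur counts of 0 to 24 for Sfrp2, Frzb, Dkk2, Dkk3 and Sostdc1, their fold changes are imprecise.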
